A study of Mus musculus with 6 samples.

Results

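The loss of Ezh1 and Ezh2 in the outer root sheath (ORS), the outer epithelial layer of the hair follicle, is described here across all genes measured on 1 array of Ezh1/2 2KO ORS cells and 1 array of WT ORS cells. These are 2 of the 6 arrays of a mouse study that also holds basal epidermal cells and hair follicle matrix cells of both genotypes, 1 array for each. All cells were sorted by FACS from the skin of mice 14 days old on a mixed C57B6 and CD1 background, and both ORS samples are labelled as female and male. The labels name no promoter or Cre driver for the deletion, do not say how many mice were pooled for a sample, and give no other allele or treatment. A gene was followed through 1 probe set that the platform annotation ties to that gene alone, which left 18193 genes. Of these, 11994 were measured in ORS, meaning that at least 1 of the 2 ORS signals reached a floor of 83.2 signal units, which is the overall median signal of the 6 arrays. With 1 array for each genotype there is no spread between replicates, so no difference below was tested and none has a p-value.

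Ezh2 and its close relative Ezh1 carry the methyltransferase activity of Polycomb repressive complex 2 (PRC2). The complex places methyl groups on lysine 27 of histone H3 (H3K27me3), a mark of silent developmental genes whose promoters are rich in CG dinucleotides, and a second complex, PRC1, acts at many of the same genes. The ORS surrounds the growing hair, is continuous with the epidermis and the sebaceous gland duct at its upper end, and holds the progenitors that feed the hair matrix at its lower end. Sox9 and Lhx2 are transcription factors of this layer and of the follicle stem cells.

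The ORS markers Sox9 and Lhx2 were bright on both ORS arrays, and each is set here beside 1 other cell type. Sox9 read 4650.2 in 2KO ORS and 5089 in WT ORS, while WT matrix read 186. Lhx2 read 5050.3 in 2KO ORS and 4349 in WT ORS, and 141 in WT basal epidermis. The basal keratin genes Krt5 and Krt14 read 24998 and 23202 in 2KO ORS, against 22122 and 23776 in WT ORS. Markers of other cells were present on both arrays: the 18 matched fibroblast and dermal papilla genes summed to 40098 in 2KO ORS and 26629.6 in WT ORS. The 17 immune cell genes summed to 7858 in 2KO ORS and 6063 in WT ORS, of which H2-Eb1 alone made up 3517 and 1148. Of the 12 measured, 8 were lower and 4 higher in 2KO ORS, most of them by less than 2-fold (median log2 ratio -0.18), with the pan-leukocyte gene Ptprc below the floor on both arrays. The male-specific gene Eif2s3y read 920.0 in 2KO ORS and 295 in WT ORS, while Xist, transcribed from the inactive X of females, read 9927 and 8358. The Y-linked genes Kdm5d and Uty stayed within 2-fold, at 162 and 131 in 2KO ORS and 91.2 and 89.5 in WT ORS. The shares of male and female cells were not given, and their part in other differences was not tested. The deposited signals share a trimmed mean on every array, yet the median signal was 99.0 in 2KO ORS and 83.1 in WT ORS. The array of 2KO ORS had 53.1% of its probe sets above the floor and that of WT ORS 49.98%. The 3'/5' signal ratio of the actin control probe sets was 1.66 in 2KO ORS and 1.43 in WT ORS.

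The 2 targeted genes were lower in 2KO ORS. Ezh2 read 378 in 2KO ORS and 2151 in WT ORS (5.69-fold lower), and Ezh1 51.6 and 380.2 (at least 4.57-fold lower, a lower bound because the 2KO signal lay under the floor). The other 3 probe sets of Ezh1 lay below the floor on both ORS arrays. Among 13 listed PRC2 subunits and cofactors, all measured, the other 2 that passed 2-fold were higher. Jarid2, a DNA-binding cofactor of PRC2, read 2175 in 2KO ORS and 934 in WT ORS, and Epop, an accessory subunit, 187 and 46.04. The other 2 probe sets of Jarid2 were 1.73-fold and 1.42-fold higher, so its call rests on 1 of 3. The core subunits Eed and Suz12 read 3709 and 2784 in 2KO ORS, against 2867 and 2895 in WT ORS. Of 17 PRC1 genes, Phc1, which encodes a Polyhomeotic subunit, was 2.43-fold higher and the other 16 lay within 2-fold, a share no larger than the 8.16% of all measured genes that were higher. Of 9 H3K27 demethylases and DNA methylation enzymes, 1 (11.1%) was higher, a share close to the 8.16% of all measured genes. It was Tet1, which oxidises methylated cytosine, at 196 in 2KO ORS and 75.4, under the floor, in WT ORS (at least 2.35-fold higher). H3K27me3 itself was not measured on these arrays.

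Of the 11994 genes measured in ORS, 979 (8.16%) were at least 2-fold higher in 2KO and 570 (4.75%) at least 2-fold lower. The median fold was 2.68 among the higher genes and 2.54 among the lower ones. At 4-fold, 232 genes were higher and 104 lower, and at 8-fold 45 were higher and 33 lower. A WT signal under the floor, which makes the fold a lower bound, was found for 29.4% of the higher genes, and a 2KO signal under the floor for 14.4% of the lower genes. Close to the threshold, 216 of the higher genes and 159 of the lower ones were at most 2.2-fold different, and a further 255 and 232 genes between 1.8-fold and 2-fold were not called. Genes with several probe sets gave mostly one direction. Of 440 higher genes with another measured probe set, 417 (94.8%) had all probe sets on the same side, as had 215 of 229 lower genes (93.9%). All probe sets reached 2-fold in 173 of the 440 and in 115 of the 229. Probe sets of a gene share the RNA sample and are not replicates. Scaling both arrays to a common median turned the balance, to 640 higher and 1002 lower genes, and scaling to the hybridisation controls gave 764 and 797, so the counts of each direction are relative to the total signal.

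**Figure D1:**
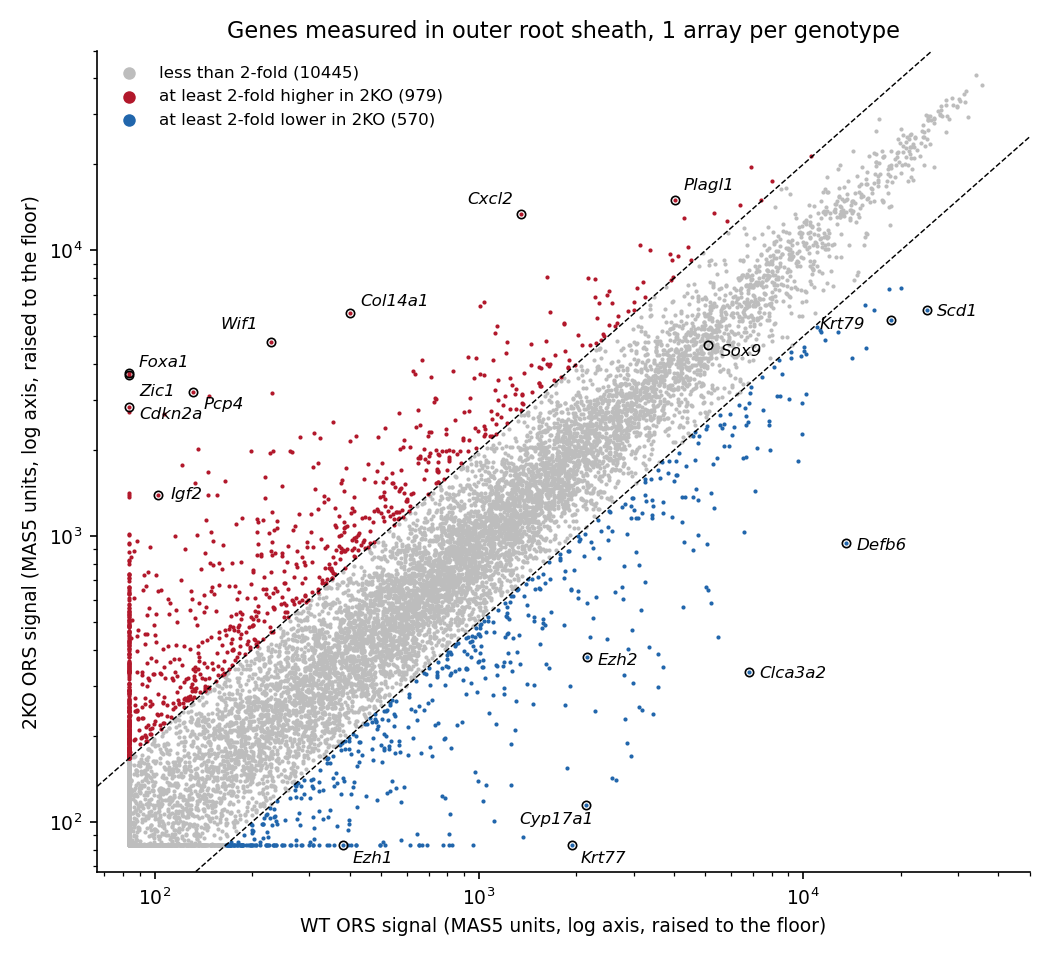
Signal of each of the 11994 measured genes in 2KO ORS (vertical axis) against WT ORS (horizontal axis), both in MAS5 units on log axes with signals under the floor raised to 83.2; dashed lines mark 2-fold. The 979 higher genes (red) include a column at the left edge that WT ORS does not raise above the floor, with Foxa1, Zic1 and Cdkn2a at its top, and the 570 lower genes (blue) include Clca3a2, Defb6 and Scd1 at bright WT signals.

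With signals raised to the floor, the 2 largest ratios were of transcription factors of other tissues, and their order rests on that floor. Foxa1, a pioneer factor of endoderm-derived organs, read 3715 in 2KO ORS and 49.1 in WT ORS, at least 44.7-fold higher. Zic1, a zinc finger factor of neural and mesodermal development, read 3656 and 31.6, at least 43.9-fold higher. Foxd1, known in kidney stroma and in the embryonic retina, read 1398 and 25.98, and Sox11, an embryonic neural factor, 1368 and 48.2. All 6 probe sets of Sox11 were at least 2-fold higher. Over a list of 120 matched developmental transcription factors of other lineages, 65 were measured, of which 33 were higher and 1 was lower. That one was Pou3f1, a POU factor of epidermal keratinocytes and Schwann cells, at 856 in 2KO ORS and 2105 in WT ORS. A member under the floor in WT can be measured only through a higher 2KO signal, so the members were also counted without that condition. Of the 99 members under the floor in WT ORS, 29 (29.3%) were at least 2-fold higher, where 4.01% of all 7187 genes under the floor in WT ORS were. Of the 21 members above the floor in WT ORS, 4 were higher and 1 was lower (against 6.28% and 5.18% of all genes above the floor there), with a median log2 ratio of 0.04. Among these 4 was Meis2, a homeobox cofactor, at 664 in 2KO ORS and 151 in WT ORS. The other 70 members under the floor in WT ORS did not reach 2-fold above the floor in 2KO ORS. Most of these 70 lay under the floor on both ORS arrays and so were not measured.

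Promoters were compared in windows of 300 bases, from 250 before to 50 after the transcription start, taken from RefSeq on GRCm38.p6. Zic1 and Foxa1 are shown because they had the largest ratios, and Krt77 and Adtrp because they were among the 3 lowest. Clca3a2, also among those 3, was not picked. The windows shown are examples and do not stand for all higher or lower genes, which are compared below. Each window is written on the strand of its gene with every CG dinucleotide in capitals. Zic1 lies at chr9:91365719-91366018 (minus strand), Foxa1 at chr12:57546062-57546361 (minus strand), Krt77 at chr15:101869656-101869955 (minus strand) and Adtrp at chr13:41847439-41847738 (minus strand).
Zic1: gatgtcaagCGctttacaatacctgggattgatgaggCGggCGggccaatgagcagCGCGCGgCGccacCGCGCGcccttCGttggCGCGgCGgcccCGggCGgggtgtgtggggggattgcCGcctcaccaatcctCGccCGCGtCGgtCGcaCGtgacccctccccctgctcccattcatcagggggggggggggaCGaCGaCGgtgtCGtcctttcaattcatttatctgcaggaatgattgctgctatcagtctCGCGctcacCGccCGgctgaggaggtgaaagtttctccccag
Foxa1: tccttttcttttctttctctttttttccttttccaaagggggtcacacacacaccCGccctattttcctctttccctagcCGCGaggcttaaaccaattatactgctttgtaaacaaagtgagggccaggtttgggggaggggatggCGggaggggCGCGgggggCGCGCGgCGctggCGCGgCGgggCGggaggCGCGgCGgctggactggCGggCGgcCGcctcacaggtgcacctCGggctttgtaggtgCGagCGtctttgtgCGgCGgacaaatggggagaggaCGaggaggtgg
Krt77: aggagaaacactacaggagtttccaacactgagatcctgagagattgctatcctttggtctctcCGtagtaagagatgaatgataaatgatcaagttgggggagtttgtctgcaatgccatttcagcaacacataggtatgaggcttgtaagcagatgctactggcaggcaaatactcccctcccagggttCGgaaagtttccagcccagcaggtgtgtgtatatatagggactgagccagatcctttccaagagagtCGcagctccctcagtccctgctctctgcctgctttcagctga
Adtrp: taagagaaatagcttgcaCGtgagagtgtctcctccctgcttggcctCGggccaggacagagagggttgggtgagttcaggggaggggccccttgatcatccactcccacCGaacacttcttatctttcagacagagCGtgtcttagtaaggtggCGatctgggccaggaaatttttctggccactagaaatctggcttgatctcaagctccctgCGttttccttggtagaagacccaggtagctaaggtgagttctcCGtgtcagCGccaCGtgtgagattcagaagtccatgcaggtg
Zic1 has 31 CG dinucleotides in its window and Foxa1 26, against 3 for Krt77 and 9 for Adtrp, whose other listed window has 7.

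The same count was made for every gene with a window, the CG dinucleotide being the same on both strands. Where a gene had several windows the one with most CG was kept. Genes higher in 2KO ORS had a median of 22 CG dinucleotides (736 genes) and genes lower in 2KO ORS a median of 15 (429 genes), while genes within 2-fold had 23 (8497 genes). Genes under the floor on both ORS arrays had a median of 6 (4790 genes). The higher genes that WT ORS left under the floor had a median of 20 (213 genes), and 67.1% of them had at least 15, against 55.2% of the 522 genes that also lay under the floor in WT ORS and above it in 2KO ORS but were less than 2-fold higher (median 16). Of the genes under the floor on both arrays 26.6% did. The lower genes that lay under the floor in 2KO ORS had a median of 8 (59 genes), and 32.2% of them had at least 15. Over all 14452 genes with a window the share with at least 15 was 59.1%, and over all 32851 windows of the table it was 34.6%. A CG count describes the window and says nothing on which protein binds there.

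**Figure D2:**
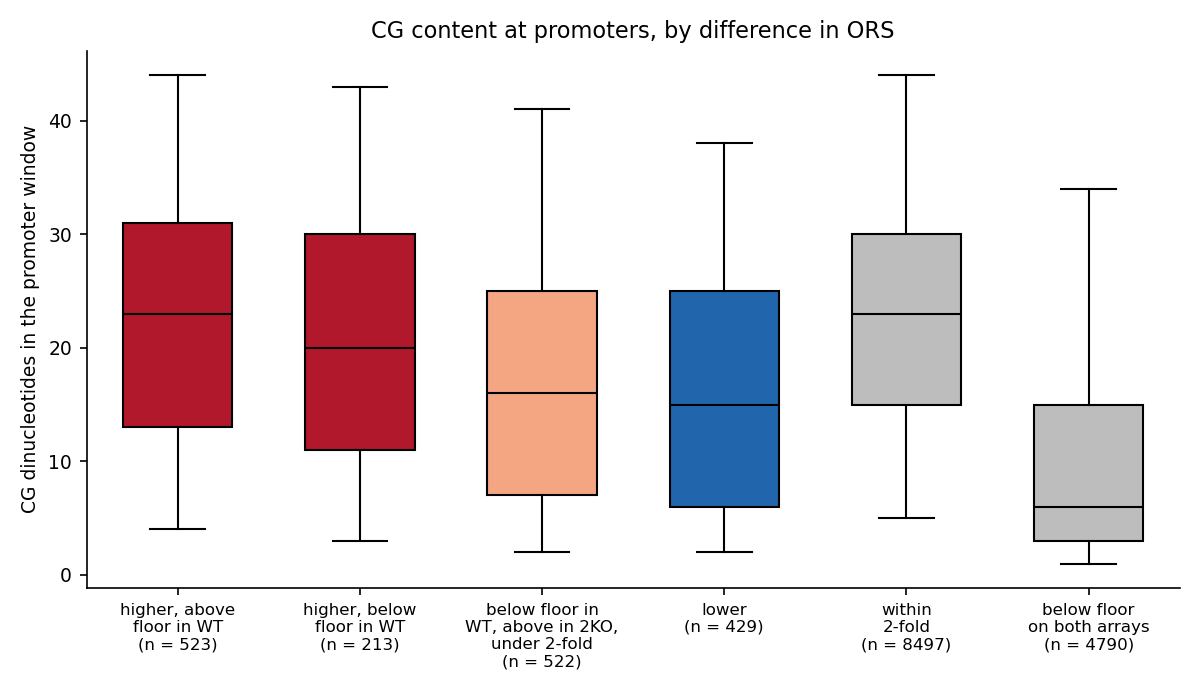
Number of CG dinucleotides in the 300-base promoter window (vertical axis) for genes grouped by their difference in ORS; boxes span the quartiles with the median as a line, and whiskers reach the 5th and 95th percentiles. Higher genes under the floor in WT ORS (median 20) lie a little above genes that crossed the floor by less than 2-fold (median 16, also counted within 2-fold), and both lie above genes under the floor on both arrays (median 6).

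Hox genes, the regulators of head-to-tail position that lie in 4 clusters, fell into 2 groups by paralog number. Of 14 members of paralog groups 9 to 13, 8 were higher and 0 were lower. Hoxd13 read 799 in 2KO ORS and 24.4 in WT ORS (at least 9.60-fold higher), Hoxd10 665 and 21.1, Hoxd9 531 and 32.98, and Hoxb13 351 and 6.89. Hoxa10, Hoxa11, Hoxc9 and Hoxc10 were between 2.55-fold and 2.71-fold higher at the least. All 8 were under the floor in WT ORS, and they were 8 of the 11 members that were (72.7%, against 4.01% of all genes under the floor there). The members above it in WT ORS were Hoxa9 at 846 in 2KO ORS and 476 in WT ORS, Hoxb9 at 229 and 146, and Hoxc13, a hair shaft regulator, at 442 and 726, all within 2-fold. Paralog groups 1 to 8 went mostly the other way. Of 14 measured members 7 (50%) were lower and 1 (7.14%) was higher, against 4.75% and 8.16% of all measured genes. The median log2 ratio of the 14 was -0.98. Hoxb6 read 79.8 in 2KO ORS and 495 in WT ORS (at least 5.95-fold lower), Hoxb2 171 and 718, Hoxa5 352 and 1186, and Hoxb3 349 and 1034. The exception was Hoxd8, at 1316 in 2KO ORS and 334 in WT ORS. Hox genes of a cluster share regulatory sequence and overlapping transcripts, so they are not independent of each other.

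**Figure D3:**
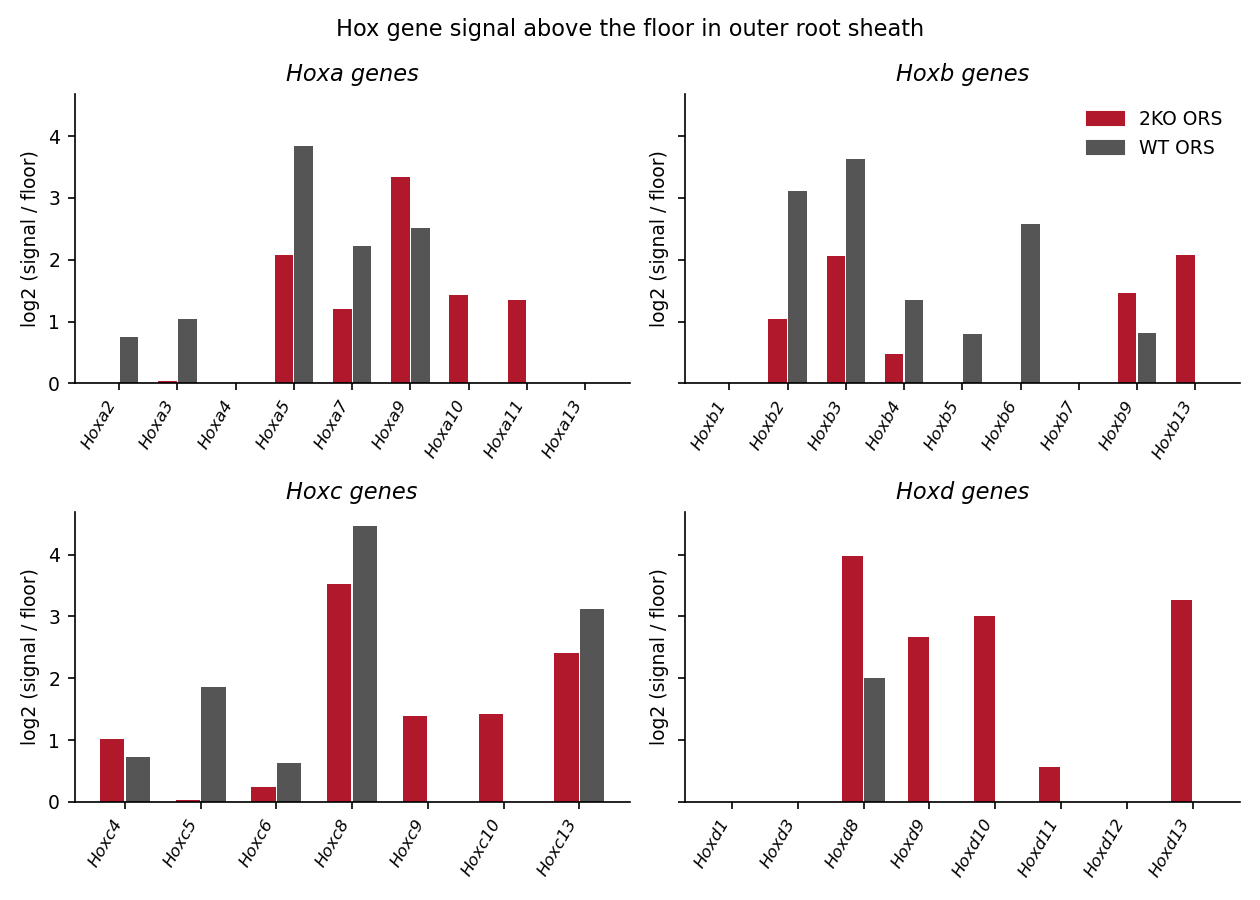
Signal of each matched Hox gene in 2KO ORS (red) and WT ORS (grey) as log2 of the signal over the floor of 83.2, with genes of each cluster in order of paralog group; a bar at 0 is a signal at or under the floor. In the Hoxd panel, Hoxd9, Hoxd10 and Hoxd13 rise above the floor only in 2KO ORS, while Hoxb2, Hoxb3 and Hoxb6 are higher in WT ORS.

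Cell cycle inhibitors were among the genes with the largest differences. Cdkn2a, which encodes p16INK4a and p19ARF, read 2839.8 in 2KO ORS and 26.4 in WT ORS (at least 34.1-fold higher). Its neighbour Cdkn2b, which encodes p15INK4b, read 1950.1 and 227 (8.60-fold higher). The imprinted inhibitor Cdkn1c (p57) read 608 and 86.4 (7.04-fold higher), and Cdkn1a (p21) 13569 and 5298 (2.56-fold higher). Cdkn1b (p27) was the 1 lower member, at 1224 in 2KO ORS and 2518 in WT ORS. Cdkn2c and Cdkn2d, INK4 genes outside that locus, stayed within 2-fold, at 841 and 968 in 2KO ORS against 889 and 984 in WT ORS. Thus 4 of the 7 inhibitors (57.1%) were higher and 1 (14.3%) was lower, against 8.16% and 4.75% of all measured genes.

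The genes of the dividing cell mostly stayed within 2-fold. Of 44 cyclins, kinases, replication and mitosis genes, all measured, 2 (4.55%) were higher and 0 were lower. Each share was smaller than that of all measured genes, 8.16% higher and 4.75% lower. The 2 higher genes were D-type cyclins of G1, Ccnd1 at 7932 in 2KO ORS and 2278 in WT ORS, and Ccnd2 at 14375 and 6368. Of 18 p53 targets and apoptosis genes, 6 (33.3%, against 8.16% of all measured genes) were higher and 0 were lower. The median log2 ratio of the 18 was 0.65. Bcl2l11, which encodes the death-promoting protein Bim, read 3783 in 2KO ORS and 833 in WT ORS. Zmat3 read 1437 and 568, Pmaip1 (Noxa) 7394 and 3078, and Eda2r 398 and 174. Hmga2, a chromatin protein of embryonic cells, was at least 12.2-fold higher, at 1013 in 2KO ORS and 43.1 in WT ORS, and all 4 of its probe sets were higher.

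Imprinted genes, expressed from 1 parental copy, were higher in 12 of 19 members above the floor in WT ORS and lower in 0, against 6.28% and 5.18% of all genes above it. Of the 17 members under the floor in WT ORS 3 (17.6%, against 4.01%) were higher. Zdbf2 read 2710.0 in 2KO ORS and 60.3 in WT ORS (at least 32.6-fold higher), and Igf2, a fetal growth factor, 1398 and 103 (13.6-fold higher). Grb10, a growth-limiting adaptor, read 648 and 105. The other probe set of Igf2 lay under the floor on both ORS arrays. Of the 3 probe sets of Grb10, 1 was called, another was at least 1.49-fold higher, and the last lay under the floor on both. Plagl1, a zinc finger regulator of other imprinted genes, read 15026 in 2KO ORS and 4029 in WT ORS at its brightest probe set. This was 3.73-fold higher, by a probe set marked for possible cross-hybridisation. Its other probe sets lay under the floor in WT ORS. They read 520 in 2KO ORS and 76.6 in WT ORS (at least 6.24-fold higher), and 107 and 46.4 (at least 1.28-fold, not called). The list spans many loci and both parental origins. One of its members, the proteoglycan gene Dcn, is also a fibroblast gene, at 4254 in 2KO ORS and 928 in WT ORS.

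Neuronal and Merkel cell genes formed a further group. Of 7 neuropeptide and neuronal genes above the floor in WT ORS 5 were higher and 0 lower, and of the 22 under it 5 (22.7%) were higher, against 6.28% and 4.01% of all genes in those classes. Calcb, which encodes the beta form of the neuropeptide CGRP, read 3087 in 2KO ORS and 147 in WT ORS (21.02-fold higher). The brain form of carnitine palmitoyltransferase, Cpt1c, read 1560.4 and 164, the potassium channel gene Kcna1 752 and 95.7, and the substance P precursor gene Tac1 1995 and 262. Pcp4, a calmodulin-binding protein of Purkinje cells, was 24.3-fold higher, at 3199 in 2KO ORS and 132 in WT ORS.

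Merkel cells are the touch-sensing cells that arise from the epidermis. Both members above the floor in WT ORS, Krt8 and Krt18, were higher, and of the 21 Merkel cell genes under it 3 (14.3%, against 4.01% of all such genes) were, namely Cck, Isl1 and Sox2. The peptide gene Cck read 819 in 2KO ORS and 20.4 in WT ORS, and the Merkel cell factors Isl1 and Sox2 read 562 and 507 in 2KO ORS, against 4.0 and 17.4 in WT ORS. The simple epithelial keratin genes Krt8, Krt18 and Krt7 read 1542, 1810.3 and 545 in 2KO ORS, against 477, 320.1 and 78.7 in WT ORS. The defining Merkel cell genes Atoh1 and Krt20 lay below the floor on both arrays, at 60.4 and 5.48 in 2KO ORS and 30.3 and 2.50 in WT ORS. The 23 matched genes summed to 6419.6 in 2KO ORS and 1209.9 in WT ORS. In sorted bulk samples, a change in the number of cells of a type and a change in RNA per cell cannot be told apart.

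Of 32 measured genes of the ORS and of follicle stem cells, 20 stayed within 2-fold. Another 9 (28.1%) were higher and 3 (9.38%) lower, larger shares than the 8.16% and 4.75% of all measured genes. Wif1, a secreted WNT antagonist, read 4785 in 2KO ORS and 228 in WT ORS (20.99-fold higher), and the BMP antagonist gene Grem1 265 and 96.9. Lgr6, which marks stem cells of the upper follicle, read 4002 and 1627. The lower members were Foxc1, a factor of stem cell quiescence, at 909 in 2KO ORS and 2243 in WT ORS, the WNT receptor gene Fzd2 at 512 and 1241, and Lrig1, which marks the junctional zone below the sebaceous gland, at 4444 and 10072. Of 16 basal layer genes 0 were higher and 1, the basal factor Bnc1, was lower, at 2663 in 2KO ORS and 5550.1 in WT ORS. The summed signal of those 16 was 149118 in 2KO ORS and 143856 in WT ORS.

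Hedgehog genes differed in 1 direction. Above the floor in WT ORS 3 of 10 members were higher and 0 lower, against 6.28% and 5.18% of all genes there. Of the 4 members under the floor 2 (50%, against 4.01%) were higher. Among the ligands, Dhh read 377 in 2KO ORS and 53.9 in WT ORS, while Shh stayed within 2-fold at 217 and 147. The receptors and ligand binders Ptch1 and Hhip, both also targets of the pathway, read 3981 and 229 in 2KO ORS, against 1974 and 26.00 in WT ORS. The transcription factors Gli1 and Gli2 read 1102 and 3435 in 2KO ORS, against 179 and 1533 in WT ORS. Gli1, the classical readout of hedgehog signalling, was 6.17-fold higher.

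WNT genes were higher in 11 (26.2%) and lower in 4 (9.52%) of 42 measured members, against 8.16% and 4.75% of all measured genes. After Wif1 the leading ones were Ror2, a receptor of noncanonical WNT ligands, at 959.8 in 2KO ORS and 151 in WT ORS, and Lef1, the nuclear effector that drives matrix differentiation, at 803 and 159. The antagonist gene Sfrp2 read 319 and 95.7. The lower members were the ligand gene Wnt9a, the receptor genes Fzd2 and Fzd7, and Sostdc1, a WNT and BMP antagonist, at 3017 in 2KO ORS and 9040.0 in WT ORS.

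BMP and TGF-beta genes were higher in 9 (23.7%) and lower in 4 (10.5%) of 38, against 8.16% and 4.75% of all measured genes. Inhba, the activin A subunit, read 921 in 2KO ORS and 258 in WT ORS, the ligand gene Bmp2 1124 and 383, and the latent TGF-beta binding proteins Ltbp1 and Ltbp2 were 2.90-fold and 3.19-fold higher. The lower members were the ligand gene Gdf10 at 19.2 in 2KO ORS and 773 in WT ORS, the co-receptor gene Tgfbr3 at 1372 and 4219, and the BMP targets Id4 and Id1, 2.87-fold and 2.25-fold lower. Bmp2 was thus higher and Id1 and Id4 lower on the same pair of arrays.

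FGF genes were split, with 4 of 17 measured members higher (23.5%) and 3 lower (17.6%), against 8.16% and 4.75% of all measured genes. The higher ones were the receptor gene Fgfr1 and the feedback or target genes Spry2, Spry4 and Etv4. The lower ones were Fgfbp1, which releases FGF from the matrix, the receptor gene Fgfr3, and Fgf13. Fgfbp1 read 1829 in 2KO ORS and 9619 in WT ORS, and Spry2 2550.1 and 846. Among 13 EGF family genes 3 (23.1%) were higher and 2 (15.4%) lower. Ereg, which encodes the EGF receptor ligand epiregulin, read 1389 in 2KO ORS and 146 in WT ORS (9.49-fold higher). Nrg1 and the feedback inhibitor Errfi1 were also higher, and Nrg4 and Lrig1 were lower. Of 16 Notch genes, Dtx1 and the receptor gene Notch1 were higher, Notch1 at 7904 in 2KO ORS and 3927 in WT ORS, and 0 were lower, a count close to the 8.16% over all measured genes.

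**Figure D4:**
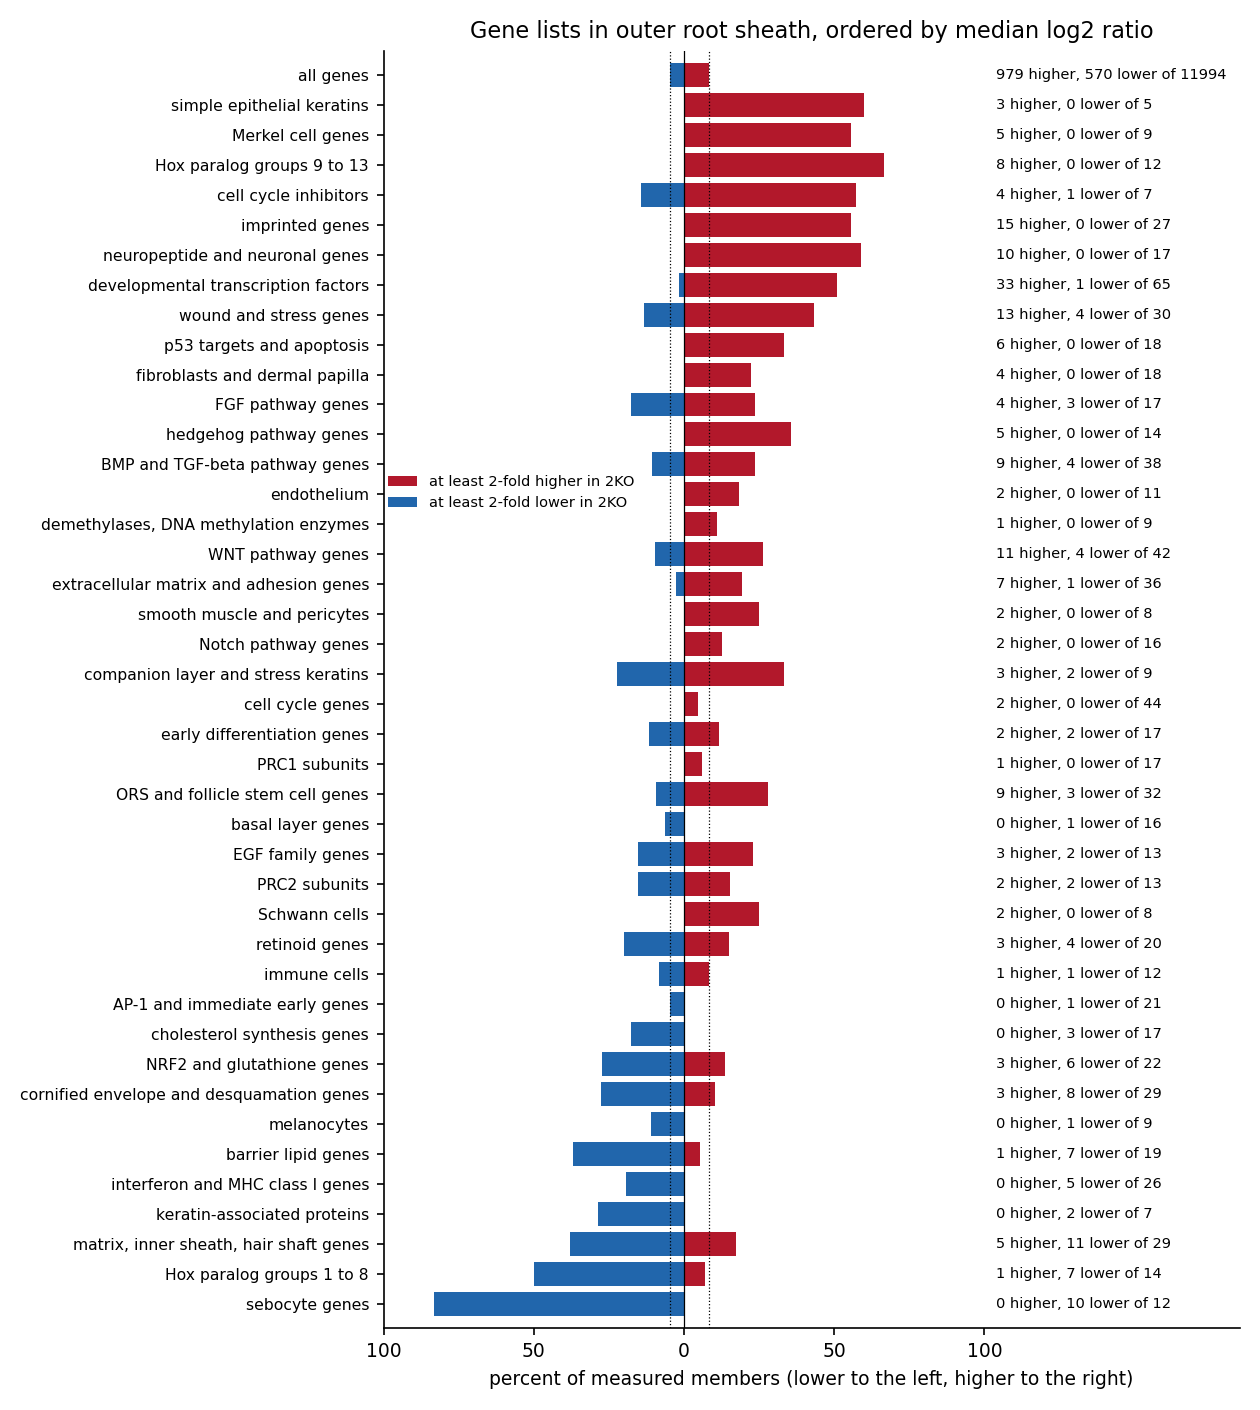
Percent of measured members of each gene list with at least 5 measured that were at least 2-fold higher (red, to the right) or lower (blue, to the left) in 2KO ORS, ordered by the median log2 ratio, with all genes at the top; dotted lines mark the shares over all genes (8.16% higher, 4.75% lower). A member under the floor in WT ORS is measured only where its 2KO signal is higher, which raises the share in lists of mostly silent genes. Simple keratin, Merkel, posterior Hox and cell cycle inhibitor lists stand at the upper end and sebocyte genes, with 10 of 12 lower, at the lower end.

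Wound and stress genes were higher in 8 and lower in 4 of 24 members above the floor in WT ORS, against 6.28% and 5.18% of all genes there. The median log2 ratio of the 24 was 0.58. Of the 7 members under the floor 5 (71.4%, against 4.01%) were higher. The collagenase gene Mmp13 read 3173 in 2KO ORS and 230.2 in WT ORS (13.8-fold higher), and the neutrophil chemokine gene Cxcl2 13423 and 1351 (9.94-fold higher). Plau, the urokinase gene, read 736 and 75.4. Krt6b and Krt16, keratin genes of wounded epidermis and of the follicle's companion region, read 1608 and 2273 in 2KO ORS, against 219 and 1045 in WT ORS. Of 9 companion layer and stress keratins, these and Krt75 were higher, and Krt79 and Krt80 were lower. The lower members were the gap junction genes Gjb2 and Gjb6, the antimicrobial lipocalin Lcn2 and the alarmin Il33. Gjb6 read 603 in 2KO ORS and 2789.9 in WT ORS, and Lcn2 3099 and 8296.

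Inflammatory and surface genes outside that list had large differences too. Tnf read 1535 in 2KO ORS and 133 in WT ORS (11.5-fold higher), and the acute phase gene Serpina3n 2674 and 107 (25.02-fold higher). The adhesion gene Icam1 read 10025 and 3367, and the tissue factor gene F3 13039.6 and 4304. The AP-1 and immediate early genes that were listed did not share this: of those 21, 0 were higher and 1 was lower (4.76%, close to 4.75% of all measured genes). That one was Egr2, at 4845 in 2KO ORS and 11659 in WT ORS. Interferon and MHC class I genes were higher in 0 and lower in 5 of 26 (19.2%, against 4.75% of all measured genes). The 5 were Usp18, Psmb8, Ifi35, Ifi27 and Tap2, and the median log2 ratio of the 26 was -0.59. Psmb8, an immunoproteasome subunit, read 1159.8 in 2KO ORS and 3100.1 in WT ORS. Immune cell genes were split, with H2-Eb1, an MHC class II gene, higher at 3517 in 2KO ORS and 1148 in WT ORS and Lyz2, a macrophage lysozyme, lower at 235 and 551. Whether immune cells had a part in these values was not tested.

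Extracellular matrix and adhesion genes were higher in 7 (19.4%) and lower in 1 (2.78%) of 36, against 8.16% and 4.75% of all measured genes. The integrin gene Itga8 read 1135 in 2KO ORS and 239 in WT ORS, and Col7a1, the anchoring fibril collagen, 5515 and 1836. Fras1, which links basement membrane to dermis, read 540.3 and 222. Outside the list, Col14a1, a fibril-associated collagen, was 15.1-fold higher, at 6059 in 2KO ORS and 400.4 in WT ORS. Of the 18 fibroblast and dermal papilla genes, Dcn, Col5a1, Col6a3 and Pdgfrb were higher (22.2%, against 8.16% of all measured genes) and 0 were lower. The log2 ratio was above 0 for 14 of the 18, with a median of 0.63. For Pdgfrb it was -0.18 when probe sets marked for possible cross-hybridisation were left out. The fibrillar collagens Col1a1, Col1a2 and Col3a1 stayed within 2-fold, at 735, 5097 and 5959 in 2KO ORS, against 937, 4993 and 5993 in WT ORS. The part of dermal cells in these differences was not tested beyond those values. Of other cell types, 2 of 11 endothelial genes (Cldn5 and Egfl7), 2 of 8 smooth muscle and pericyte genes (Des and Cspg4) and 2 of 8 Schwann cell genes (Gfra3 and Ngfr) were higher. Of 9 melanocyte genes 1, Tyrp1, was lower, and of 3 measured skeletal muscle genes 0 passed 2-fold.

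Sebaceous gland genes had the largest share of lower members of the lists with at least 5 measured. Sebocytes make the oily sebum of the follicle canal. Of 12 measured sebocyte genes 10 (83.3%, against 4.75% of all measured genes) were lower and 0 were higher. The median log2 ratio of the 12 was -1.85. Far2, which makes fatty alcohols for wax esters, read 246 in 2KO ORS and 3188 in WT ORS (12.95-fold lower), and Pparg, the master regulator of sebocyte and fat cell differentiation, 210.1 and 1289 (6.13-fold lower). Cidea, a lipid droplet gene, read 403 and 2875, and the desaturase gene Scd1 6194 and 24028. Krt79, a keratin of the upper follicle and gland duct, read 5691 in 2KO ORS and 18647 in WT ORS. The 13 matched genes summed to 21433 in 2KO ORS and 74178 in WT ORS. Fasn was within 2-fold, at 2025 and 2749.9, and Plin5 lay under the floor on both arrays. The part of gland or duct cells in the other lower lipid genes was not tested.

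Other lipid lists went the same way with smaller shares. Barrier lipid genes were lower in 7 (36.8%) and higher in 1 (5.26%) of 19, against 4.75% and 8.16% of all measured genes. Acer1, an alkaline ceramidase, read 68.1 in 2KO ORS and 959.7 in WT ORS, the very-long-chain elongase gene Elovl3, also in the sebocyte list, 244 and 2283, and the lipoxygenase gene Alox12e 386 and 3582. Ugcg, which makes glucosylceramide, was the higher one, at 603 in 2KO ORS and 179.9 in WT ORS. Of 17 cholesterol synthesis genes 3 (17.6%) were lower (Hmgcs1, Idi1 and Lss) and 0 higher. Hmgcs1 read 6174 in 2KO ORS and 16584 in WT ORS. Fa2h, a fatty acid hydroxylase, was 10.7-fold lower and Acsbg1, an acyl-CoA synthetase, 12.3-fold lower. Scd2, a desaturase paralog of Scd1, stood on the other side, at 10476 in 2KO ORS and 3143 in WT ORS.

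The lowest ratios included those of keratin, enzyme, receptor and secreted protein genes. Krt77, a keratin of sweat duct and suprabasal epidermis, read 68.8 in 2KO ORS and 1937 in WT ORS (at least 23.3-fold lower). Clca3a2, a chloride channel accessory protein, read 335 and 6794 (20.3-fold lower), and the beta-defensin gene Defb6 944 and 13578 (14.4-fold lower). Adtrp, a lipid hydrolase, read 141 and 2647. The steroid enzyme gene Cyp17a1 read 115 in 2KO ORS and 2137 in WT ORS, the sialic acid hydroxylase gene Cmah 142 and 2579, and the vasopressin receptor gene Avpr1a 88.7 and 1371. The alcohol dehydrogenase genes Adh1 and Adh7, which also oxidise retinol, read 169.6 and 229.8 in 2KO ORS, against 2944 and 2814 in WT ORS.

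**Figure D5:**
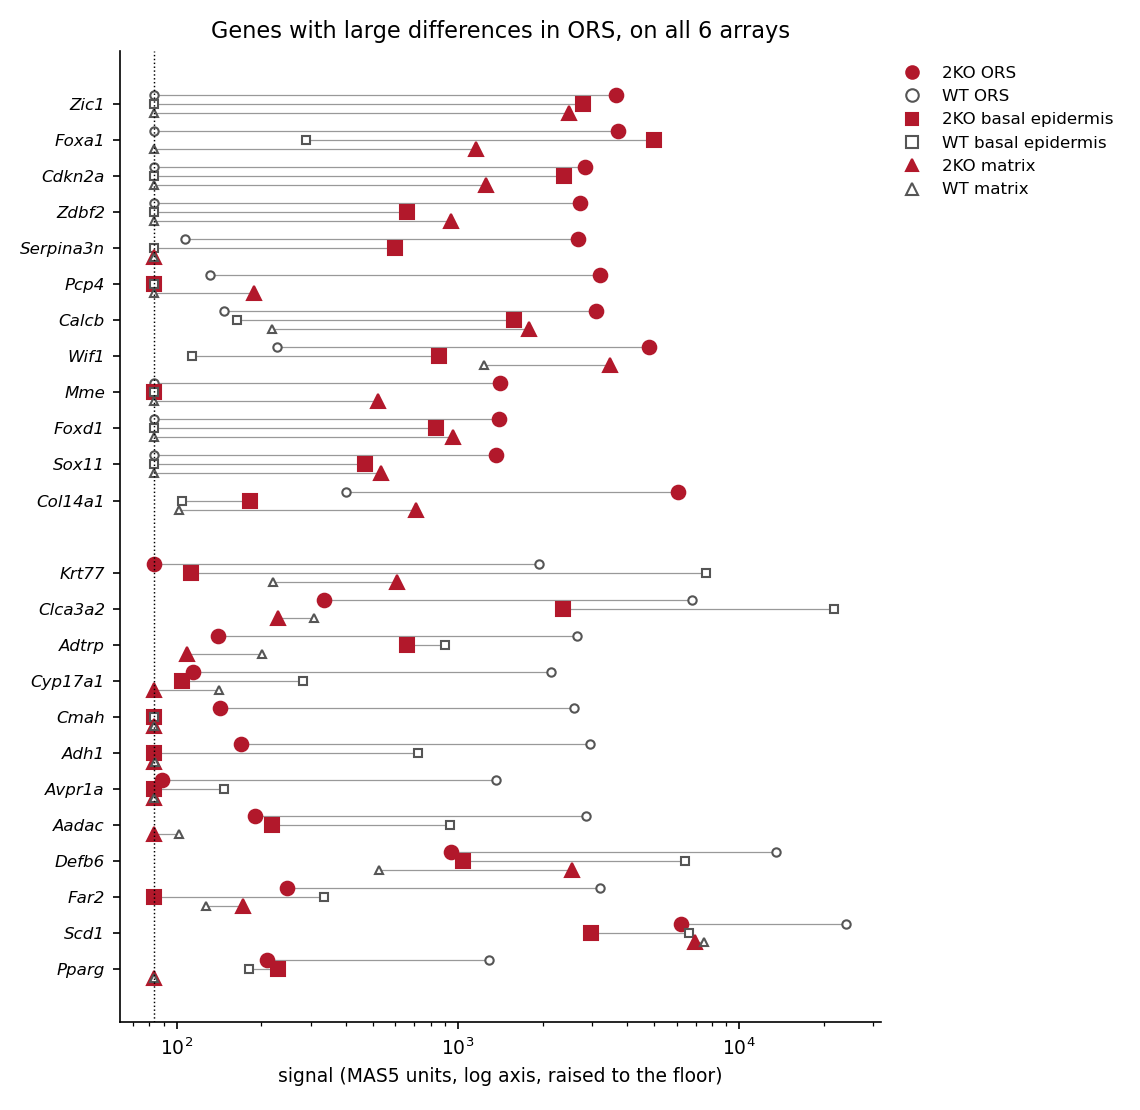
Signal on all 6 arrays (horizontal log axis, MAS5 units, signals under the floor raised to the dotted line) for 12 genes higher and 12 lower in 2KO ORS; filled symbols are 2KO and open symbols WT, with circles for ORS, squares for basal epidermis and triangles for matrix. Zic1, Cdkn2a, Zdbf2, Mme, Foxd1 and Sox11 are at the floor in WT of all 3 cell types, whereas Cmah is at the floor on the basal epidermis and matrix arrays of both genotypes and Defb6 is higher in 2KO matrix than in WT matrix.

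Retinoid and redox genes were mixed. Of 20 retinoid genes 3 (15%) were higher and 4 (20%) lower, against 8.16% and 4.75% of all measured genes. The higher ones were Crabp1, which binds retinoic acid, and the retinaldehyde dehydrogenase genes Aldh1a2 and Aldh1a3. Crabp1 read 628 in 2KO ORS and 66.6 in WT ORS. The 4 lower ones included Rarres1 at 80.4 in 2KO ORS and 809.5 in WT ORS and Lrat, which stores retinol as esters, at 50.98 and 261. Of 22 NRF2 and glutathione genes 6 (27.3%) were lower and 3 (13.6%) higher. The glutathione transferase gene Gsta3 read 54.8 in 2KO ORS and 655 in WT ORS, and the heme oxygenase gene Hmox1 84.9 and 505, while Srxn1, a peroxiredoxin reductase, was 2.73-fold higher.

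Genes of the differentiated epidermis were mixed. Cornified envelope and desquamation genes were lower in 8 (27.6%) and higher in 3 (10.3%) of 29, against 4.75% and 8.16% of all measured genes. The median log2 ratio of the 29 was -0.38. The desquamation protease genes Klk7 and Klk5 read 444 and 102 in 2KO ORS, against 5452 and 397 in WT ORS, and the envelope precursor Sprr1a 2000.3 and 7906. The higher members were Sprr2d, Sprr2h and Lor, the loricrin gene, at 714 in 2KO ORS and 352 in WT ORS. Early differentiation genes had 2 higher (Calml4 and Krtdap, 11.8%) and 2 lower (Krt77 and Calm4, 11.8%) of 17. Calm4 read 663 in 2KO ORS and 5026 in WT ORS.

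Among 29 measured matrix, inner root sheath and hair shaft genes, 11 (37.9%) were lower and 5 (17.2%) higher, against 4.75% and 8.16% of all measured genes. The lower ones were led by keratins of the inner sheath and hair, Krt25 at 135 in 2KO ORS and 1052 in WT ORS, Krt35 at 90.8 and 645, and Krt28 at 131 and 557. The higher ones were Lef1, the nuclear factors Trps1, Msx1 and Cux1, and Prr9, a gene of the epidermal differentiation complex. Trps1 read 2383 in 2KO ORS and 514 in WT ORS, and Prr9 2227 and 490.4. Over the 29 the median log2 ratio was -0.78, and with the floor at the 75th percentile, which leaves fewer members measured, it was 0.048. Of 7 measured keratin-associated protein genes 2 were lower (Krtap8-1 and Krtap15) and 0 higher.

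Genes were also chosen without using either ORS array. The first set held genes whose signal in WT matrix was at least 4-fold that in WT basal epidermis, and of its 219 measured genes 50 (22.8%) were higher in 2KO ORS and 21 (9.59%) lower, with a median log2 ratio of 0.30. The other set was chosen the other way round, and of its 623 measured genes 78 (12.5%) were higher in 2KO ORS and 139 (22.3%) lower, with a median log2 ratio of -0.18. Both sets had larger shares of called genes in each direction than all measured genes (8.16% higher and 4.75% lower).

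The genes called in ORS were then set beside the other cell types. Of the 979 genes higher in ORS, 212 were also at least 2-fold higher in both basal epidermis and matrix, 169 in basal epidermis but not matrix, 211 in matrix but not basal epidermis, and 387 (39.5%) in neither. Across all measured genes 6.59% were higher in basal epidermis and 9.03% in matrix. Of the 570 genes lower in ORS, 19 were also lower in both, 160 in basal epidermis but not matrix, 16 in matrix but not basal epidermis, and 375 (65.8%) in neither, with 4.09% of measured genes lower in basal epidermis and 1.62% in matrix. Called the opposite way were 10 of the higher genes in basal epidermis and 6 in matrix, and 13 of the lower genes in basal epidermis and 56 in matrix. Col14a1 is an example of a gene with a large ratio in ORS (15.1-fold higher) that lay within 2-fold in basal epidermis, at 182 in 2KO and 104 in WT. Pcp4 lay under the floor on both basal epidermis arrays. The 2KO basal epidermis sample came from females alone, and with 1 array for each group no difference between cell types could be tested.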

How the data were processed

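RNA of sorted skin cells was labelled with biotin and hybridised to Affymetrix mouse expression arrays, 6 arrays in all. The deposited values are linear signal intensities, 1 for each of 45101 probe sets and each array, made with MAS5 per the submitters' processing notes; its version is not given in the sources used here. Each array's deposited intensity values have the same 2% trimmed mean, so no further scaling was applied. The 64 control probe sets, 932 with several genes and 9160 without a listed gene were left out, and of a gene's probe sets the brightest by mean log2 signal was kept. Signals under 83.2 were raised to it, 2KO was set over WT as a log2 ratio, and genes at 2-fold were called. A median over a list counts members under the floor at their bound. The calling was tested on simulated data.

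The comparison and the 43 gene lists (950 of 1029 genes matched) were chosen with earlier results of these data known. Named genes are those targeted, the 20 largest and 20 smallest ratios, the 15 largest rises and drops in signal, and up to 4 called members of each list in each direction, with all inhibitors, PRC2, Hox and sex genes; Pparg, and members named beside small counts or within 2-fold, were chosen after their values were seen. Promoter windows come from RefSeq, GRCm38.p6, matched by symbol for 14452 genes. Alternatives were 4 scalings, 2 other floors and 2 other choices of probe set. Python 3.11.15, numpy 2.4.6 and pandas 2.3.3 were used. The number of arrays limits the precision.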

Additional observations from a re-analysis of the deposited data

Results flagged for a closer look

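Among the genes named above or eligible to be named, 19 were at least 2-fold one way in ORS and at least 2-fold the other way in another cell type of the same genotypes. With 1 array for each group, the difference between cell types was not tested for any of them.

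Lower in 2KO ORS and higher in 2KO matrix were 16 of these, several of them genes of the upper follicle or the differentiated epidermis. Markers of other cells were also higher in 2KO matrix: the 16 basal layer genes summed to 66656 in 2KO matrix and 38839 in WT matrix, and the 9 companion layer and stress keratins to 62129 and 18760. At least 2-fold higher there were 14 of 17 measured fibroblast genes, 9 of 14 immune cell genes and 7 of 10 skeletal muscle genes. Of all genes measured in matrix 9.03% were. The part of other cells in the 16 was not tested. Krt77 had a log2 ratio of -4.54 in ORS and read 608 in 2KO matrix and 221 in WT matrix. Defb6 had -3.85 in ORS and read 2547 in 2KO matrix and 524 in WT matrix, and the protease gene Klk7, at -3.62 in ORS, read 1157 and 321. Alox12e had a log2 ratio of -3.21 in ORS, Calm4 of -2.92, Ly6d, a surface protein of keratinocytes, of -2.12, and Sprr1a of -1.98. The keratin genes Krt80 and Krt79 had -1.78 and -1.71. In matrix, Ly6d read 3289.8 in 2KO and 1213 in WT, Sprr1a 3004 and 777, and Krt79 19517 and 1077. The other 7 were Lrat with a log2 ratio of -1.65 in ORS, Sostdc1 with -1.58, Lcn2 with -1.42, Foxc1 with -1.30, the glutamine synthetase gene Glul with -1.27, Lrig1 with -1.18 and Fgf13 with -1.01. Among these 7 in matrix, Lrig1 read 987 in 2KO and 429 in WT, and Sostdc1 1232 and 186.

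The remaining 3 went other ways. Msx1, with a log2 ratio of 1.30 in ORS, was lower in matrix, at 2111 in 2KO and 4277 in WT. Bmp2, with 1.55 in ORS, was lower in basal epidermis, at 1993 in 2KO and 6664 in WT. The glutathione transferase gene Gsta4, with -1.59 in ORS, was higher in basal epidermis, at 2151 in 2KO and 190.3 in WT.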

How the results depend on the processing

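No paired analysis was possible because each group has 1 array, and leaving out a replicate was not possible for the same reason. Scaling to a common median gave 640 higher and 1002 lower genes, a median log2 ratio of -0.24 (0.01 as deposited) and 38.98% of calls higher (63.2% as deposited). Scaling to the hybridisation controls gave a median of -0.14 and 48.94% of calls higher. Each scaling shifts the ratios of genes above the floor on both ORS arrays down by one constant. The floor was set again after scaling, so ratios with a signal under the floor move by other amounts. With both scalings all 570 lower genes stayed lower, and all of the 640 and 764 higher genes were among the 979. A floor at the 25th percentile gave 1834 higher and 935 lower genes, and one at the 75th percentile 337 and 282. Quantile normalization, loess within the ORS pair, the mean over a gene's probe sets and leaving out probe sets marked for cross-hybridisation kept both counts within 1.5 times. Of 217 named genes past 2-fold, 29 dropped under it with the common median, 16 with the hybridisation controls, 19 with the mean over probe sets, 5 with quantile normalization, 3 with loess and 0 with the lower floor. With the higher floor 39 of 177 did, and without the marked probe sets 5 of 189. The direction of Pdgfrb was reversed there, at -0.18, and the list median of matrix, inner sheath and shaft genes was reversed, at 0.048, with the higher floor, which leaves fewer genes measured. Signal near the floor and the single pair of arrays limit all folds.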

Other observations

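Some neighbouring genes stood on the same side. In the RefSeq gene order of GRCm38.p6, among measured genes, 14 runs of at least 3 neighbours were all higher and 6 were all lower. Of all measured genes 8.16% were higher and 4.75% lower, and how many runs those shares alone would give was not worked out. The longest higher run held Dgkk, Clcn5, Usp27x, 2010204K13Rik and Ppp1r3f. The INK4 locus gave the run Cdkn2a, Cdkn2b and Dmrta1, and the Hoxa cluster gave Hoxa10, Hoxa11 and its antisense gene Hoxa11os, which a 3-prime array can tell apart only as far as its probes are strand-specific. The epidermal differentiation complex gave S100a9, Lor, Prr9 and Sprr2d on the higher side. The longest lower run held the hair keratin genes Krt33a, Krt31, Krt32 and Krt35, and the cytochrome genes Cyp2b10, Cyp2g1 and Cyp2f2 formed another. Neighbouring paralogs can cross-hybridise, and its part in these runs was not tested.

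Genes with the largest differences in signal units in ORS belonged to no list above in several cases, and their ratios were not always large. Ndrg1, a stress- and hypoxia-responsive gene, read 19567 in 2KO ORS and 6896 in WT ORS. The carboxypeptidase gene Cpe, close to the 2-fold threshold, read 17459.6 and 8031. Nr4a2, an orphan nuclear receptor, read 8051 and 1619, and Igfbp3, which binds insulin-like growth factors, 8041 and 2168. On the lower side, Marcks, a substrate of protein kinase C, read 4552 in 2KO ORS and 15582 in WT ORS. The ketone body enzyme gene Oxct1 read 7317 and 18443, and Psph, the last enzyme of serine synthesis, 2935 and 9929.7. Among these, Igfbp3 had the reverse order in basal epidermis, at 7604 in 2KO and 12731 in WT, within 2-fold.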
